A study of Danio rerio with 20 samples.

Results

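Untreated *rx3 strong* larvae were compared with their untreated wild-type (WT) siblings across all genes measured by RNA-Seq. The comparison holds 8 of the 20 libraries of the study, 4 of WT and 4 of *rx3 strong*, chosen by genotype and treatment alone. There was 1 library of each genotype at ZT3, ZT9, ZT15 and ZT21 (*Zeitgeber* time, in hours after lights on). *rx3 strong* larvae were homozygous for the allele t25327. Another 4 libraries, of the same time points, came from *rx3 weak* larvae homozygous for the allele t25181. They were fitted together with the 8 and served as a second reference, because these larvae also lack eyes but have normal cortisol. Every library was made from the total RNA of 30 pooled whole larvae at 5 dpf, kept at 28 °C under 12 h light and 12 h dark after mutants and siblings of pooled clutches had been sorted at 1 dpf. The labels give a mixed TU, AB and WIK strain for all 3 genotypes, whereas the methods name AB. The labels also say untreated, whereas 0.1% DMSO is the control vehicle of the methods and DMSO stands in the column names. It is not stated whether the WT siblings included heterozygous carriers, or from which allele's clutches they came. The 4 time points stood in for replicates, and since nothing states that the libraries came from separate clutches, the p-values measure the spread between these libraries only, which may be technical. With 1 library per genotype and time point, that spread also holds any difference in time course between the genotypes, *rx3 weak* included.

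The gene *rx3* encodes a retinal homeobox transcription factor that the eye field of the early forebrain needs to form eyes, and it also acts in the development of the hypothalamus and pituitary. Larvae with the strong allele have far fewer corticotropes, the pituitary cells that make ACTH from its precursor POMC. ACTH drives the interrenal gland, the fish counterpart of the adrenal cortex, to make cortisol. Cortisol acts on its target genes through the glucocorticoid receptor, a transcription factor that binds DNA once it has bound the hormone. In vertebrates, glucocorticoids are known to act on glucose production, amino acid and lipid metabolism, muscle protein breakdown and inflammation. Which changes in *rx3 strong* go with the loss of the eyes, with the lack of the hormone or with other defects of the forebrain was not tested.

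Levels are given as CPM, the reads of a gene scaled to a fixed library total, after TMM scaling of the deposited counts. Where 4 values follow each other, their order is ZT3, ZT9, ZT15 and ZT21. Total counts lay between 16427280 and 22204708 per library. The targeted gene *rx3* had 82, 119, 128 and 86 raw reads in WT and 53, 44, 57 and 49 in *rx3 strong*, where the transcript was therefore still present (log2 change -1.06 ± 0.20 (SE), edgeR adjusted p = 0.00102). The matched rod, cone and lens genes, 89 of them tested, are the defining markers of the missing tissue. Their summed level was 1.18% to 1.42% of the TMM-scaled total in WT. It was 0.113% to 0.171% in *rx3 weak* and 0.0173% to 0.0261% in *rx3 strong*, so that the libraries matched their labels. The first principal component, with 43.86% of the variance, held WT between -65.5 and -53.9, *rx3 weak* between 4.94 and 13.0 and *rx3 strong* between 47.0 and 52.6. The 10 genes with most reads took 7.16% to 7.6% of the counts in WT and 9.63% to 10.96% in *rx3 strong*. In whole larvae, fewer cells of a type and less RNA per cell cannot be told apart.

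A gene was called when its adjusted p was under 0.05 in edgeR's quasi-likelihood test, whose model also held the time point. The Benjamini-Hochberg adjustment ran over 22078 genes. Between *rx3 strong* and WT, 4229 genes (19.2% of those tested) were called, 1912 of them higher (8.66%) and 2317 lower (10.5%) in *rx3 strong*. With a change of at least 1 on the log2 scale there were 980 genes (4.44%), of which 167 were higher (0.756%) and 813 lower (3.68%). The median absolute log2 change of the called genes was 0.508, and the median log2 change of all genes tested was 0.01. Of the 4229 called genes, 4038 kept 1 direction through the 4 time points. The 4 values of *rx3 strong* lay entirely above the 4 of WT in 1537 genes (6.96%) and entirely below in 1793 (8.12%). Scaling by the total count alone turned the called genes into 1148 higher and 3334 lower. Against *rx3 weak*, which is compared with the same *rx3 strong* libraries, 2677 genes (12.1%) were called, 1117 higher (5.06%) and 1560 lower (7.07%). With a log2 change of at least 1 these were 719 (3.26%), 225 higher (1.02%) and 494 lower (2.24%). Fewer genes were called as higher than WT without the WT library of ZT3 (1194), ZT15 (1219) or ZT21 (1150).

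Among the gene lists, those of the eye showed the deepest loss in *rx3 strong*. Among all genes tested, 10.5% were lower and 8.66% higher. Of the 18 genes tested in a list of rod phototransduction, 17 were lower and 0 higher, with a median log2 change of -5.89. Of 22 genes of cone phototransduction all were lower, with a median of -5.50, and of 50 lens genes 49 were lower, with a median of -6.22. The cone count holds *opn1mw1* and *opn1mw2*, whose reads could not be told apart, and *GRK1* stands in both the rod and the cone list. The summed level over these 3 lists was 11777 to 14212 CPM in WT, 1132 to 1710 CPM in *rx3 weak* and 173 to 261 CPM in *rx3 strong*. Against *rx3 weak*, 15 rod, 13 cone and 43 lens genes were lower in *rx3 strong*, beside 7.07% of all genes. The 17 rod, 22 cone and 49 lens genes that were lower than WT did not overlap with WT in any library. Of all genes, 8.12% lay entirely below WT. Names in capitals are given as the gene name table has them.

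The visual pigments of the cones fell with these lists. The ultraviolet cone opsin *OPN1SW* had 2035, 1908, 1637 and 1757 CPM in WT, 133, 79.8, 103 and 34.5 CPM in *rx3 weak* and 0.234, 0.379, 0.0503 and 2.83 CPM in *rx3 strong* (log2 change -11.10 ± 0.50 (SE), edgeR adjusted p = 5.82e-12). Its 4 levels in *rx3 strong* spread widely, with the highest at ZT21, but all stayed below *rx3 weak* (log2 change -6.64 ± 0.48 (SE), edgeR adjusted p = 2.16e-08 against *rx3 weak*). The blue cone opsin *opn1sw2* had 233 ± 40.99 CPM in WT and 0.324 ± 0.114 CPM in *rx3 strong* (SD, n = 4; log2 change -9.53 ± 0.40 (SE), edgeR adjusted p = 1.84e-12). The red cone opsin *opn1lw2* had 618 ± 103 CPM in WT and 0.938 ± 0.613 CPM in *rx3 strong* (SD, n = 4; log2 change -9.40 ± 0.42 (SE), edgeR adjusted p = 5.57e-12). The green cone opsins *opn1mw1* and *opn1mw2* differed by at most 28 reads in any library. Their totals were 22487 and 22514 reads, so that their reads could not be told apart and their fall (log2 change -10.75 for both) counts as 1 measurement.

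Proteins that carry the light signal or build the outer segment fell with the pigments. The cone transducin subunit genes *gnb3b* and *GNAT2* had log2 changes of -9.52 and -6.98, and *gnb3b* went from 903 ± 189.7 CPM (mean ± SD, n = 4) in WT to 1.23 ± 0.24 CPM. The kinase *GRK7* (ENSDARG00000020602), which shuts off activated cone opsin, had a log2 change of -8.86. Peripherin, a protein of the outer segment disc rim, was measured by 2 identifiers. *PRPH2* (ENSDARG00000014840) had 106, 122, 100.1 and 101 CPM in the WT libraries and 0.0584, 0.0474, 0 and 0.289 CPM in the *rx3 strong* libraries. *PRPH2* (ENSDARG00000038018) had 147, 142.97, 124 and 183 CPM in the WT libraries and 0.292, 0.426, 0.201 and 0.116 CPM in the *rx3 strong* libraries. Both showed no overlap between the groups, with log2 changes of -10.09 and -9.09. Its partner *rom1a* had 55.9 ± 6.78 CPM in WT and 0.312 ± 0.105 CPM in *rx3 strong* (SD, n = 4; log2 change -7.44 ± 0.15 (SE), edgeR adjusted p = 2.11e-16). The transcription factor gene *six7*, which zebrafish need for green cone opsins, had 20.9, 15.5, 25.4 and 18.1 CPM in the WT libraries and 0.234, 0.142, 0.301 and 0.116 CPM in the *rx3 strong* libraries (log2 change -6.62 ± 0.20 (SE), edgeR adjusted p = 2.04e-14).

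Some lens genes came down to 1 read or none in *rx3 strong*. The lens crystallin gene *crygmxl1* had 47, 28, 22 and 29 reads in WT and 0 in *rx3 strong*, which is at least 43.5-fold lower with a floor of 3 reads over the group. Another crystallin gene, *crygm2f*, had 726 reads over the 4 WT libraries against 1 over the 4 *rx3 strong* libraries, a ratio of 752 with a 95% counting interval of 135 to 29738. This bound and this interval cover counting error only.

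Lens crystallins are the proteins that make the lens transparent, and some of them were still read in every *rx3 strong* library. *crygm2d12* had 209, 202, 189 and 232 CPM in WT, 27.03, 19.6, 23.1 and 26.1 CPM in *rx3 weak* and 3.21, 2.18, 2.51 and 3.52 CPM in *rx3 strong* (log2 change -6.20 ± 0.11 (SE), edgeR adjusted p = 8.57e-17). The 3 genotypes did not overlap, and *rx3 strong* was also below *rx3 weak* (log2 change -3.08 ± 0.11 (SE), edgeR adjusted p = 5.77e-12). *crygm2d16* had 178 ± 16.9 CPM in WT and 1.70 ± 0.521 CPM in *rx3 strong* (SD, n = 4), and *BFSP1*, a filament protein of lens fibre cells, 177 ± 18.6 CPM in WT and 3.4997 ± 0.637 CPM in *rx3 strong* (SD, n = 4), with log2 changes of -6.73 and -5.66. The lens transcription factor gene *foxe3* had 0.918, 1.80, 0.692 and 0.902 CPM in the WT libraries and 0.409, 0.237, 0.402 and 0.289 CPM in the *rx3 strong* libraries (log2 change -1.63 ± 0.47 (SE), edgeR adjusted p = 0.0197), a call that was lost without the WT library of ZT3 or ZT9 or the *rx3 strong* library of ZT9 or ZT21. The single lens gene that was not called, *crygm3*, had 1.35, 1.02, 1.597 and 0.796 CPM in the WT libraries and 0.701, 1.23, 0.854 and 0.578 CPM in the *rx3 strong* libraries (log2 change -0.47 ± 0.34 (SE), edgeR adjusted p = 0.37), with overlapping groups.

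**Figure D1:**
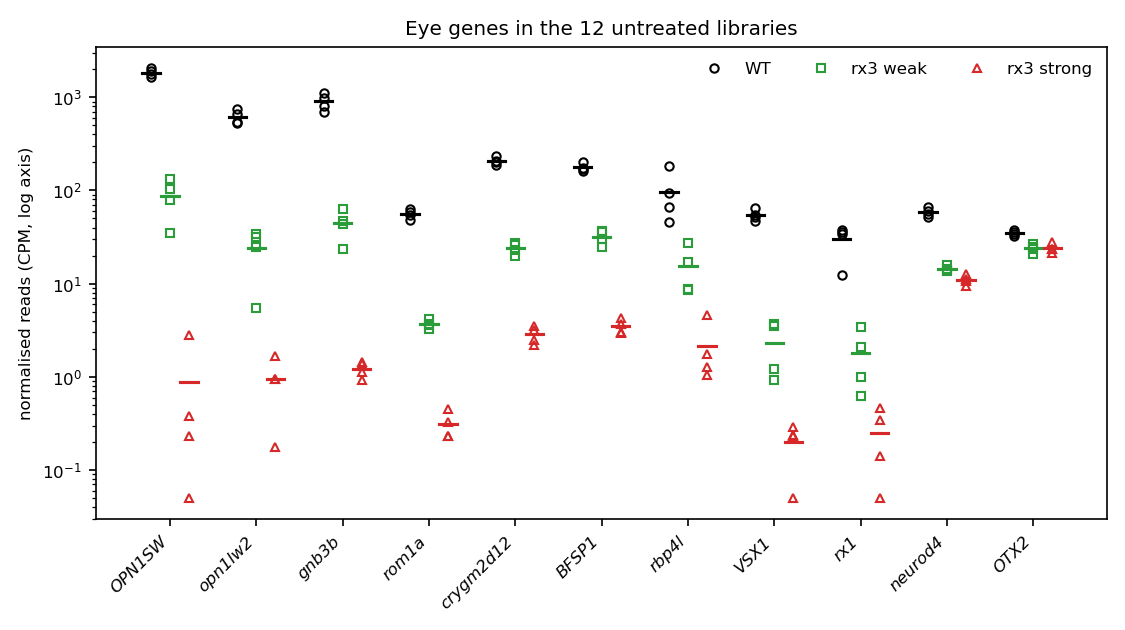
Level of 11 eye genes in CPM on a log axis, with 1 point per library (n = 4 per genotype) and a bar at the mean, for WT (circles), *rx3 weak* (squares) and *rx3 strong* (triangles). For the first 10 genes the mean of *rx3 strong* lay below those of *rx3 weak* and WT, by a log2 change of -11.10 for *OPN1SW* and -2.42 for *neurod4* against WT, and *OTX2* had 23.9 ± 2.80 CPM against 35.1 ± 2.26 CPM in WT.

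Most genes of the neurons and glia of the retina, and of the transcription factors that make them, fell, to differing extents. Of 28 such genes, 25 were lower (median log2 change -2.299) and 0 higher (89.3% called, against 19.2% of all genes). Lower than *rx3 weak* were 13, beside 7.07% of all genes. The bipolar cell transcription factor gene *VSX1* had 55.1, 52.2, 64.3 and 46.4 CPM in WT, 3.48, 1.202, 3.66 and 0.915 CPM in *rx3 weak* and 0.234, 0.237, 0.0503 and 0.289 CPM in *rx3 strong* (log2 change -8.07 ± 0.30 (SE), edgeR adjusted p = 3.90e-13). Its 4 values in *rx3 strong* lay below those of *rx3 weak* (log2 change -3.49 ± 0.44 (SE), edgeR adjusted p = 2.41e-05). The photoreceptor and pineal transcription factor gene *crx* (ENSDARG00000011989) had 89.6 ± 13.4 CPM in WT and 1.13 ± 0.494 CPM in *rx3 strong* (SD, n = 4; log2 change -6.35), and the retinol carrier gene *rbp4l* had 97.0 ± 60.3 CPM in WT and 2.16 ± 1.62 CPM in *rx3 strong* (SD, n = 4; log2 change -5.51). The fall was smaller for the proneural factor gene *neurod4*, which neurons outside the eye also use, with 11.02 ± 1.42 CPM against 58.8 ± 6.18 CPM in WT (log2 change -2.42 ± 0.08 (SE), edgeR adjusted p = 1.48e-13).

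Of 15 transcription factors of the eye field, 12 were lower (86.7% called in either direction, against 19.2% of all genes). Lower than *rx3 weak* were 8, beside 7.07% of all genes. The paralogs *rx1* and *rx2*, which act in the differentiating retina, had log2 changes of -6.94 and -7.48, and *rx1* had 37.7, 34.5, 35.8 and 12.4 CPM in the WT libraries and 0.467, 0.142, 0.0503 and 0.347 CPM in the *rx3 strong* libraries. The WT library of ZT21 was low for *rx1*, yet still above every *rx3 strong* library. The eye and forebrain genes *SIX6* (ENSDARG00000031316), *PAX6*, *SIX3* (ENSDARG00000054879) and *VAX1* had log2 changes of -5.71, -2.54, -2.18 and -1.63. *VAX1*, which patterns the optic stalk and ventral forebrain, had 10.9, 12.5, 13.6 and 11.7 CPM in WT, 6.28, 7.96, 9.43 and 8.35 CPM in *rx3 weak* and 4.38, 3.55, 4.82 and 2.95 CPM in *rx3 strong*, and its level in *rx3 strong* was also below *rx3 weak* (log2 change -1.02 ± 0.15 (SE), edgeR adjusted p = 1.09e-04). *OTX2*, which marks the forebrain and midbrain as well as the eye, changed little, from 35.1 ± 2.26 to 23.9 ± 2.80 CPM (log2 change -0.55 ± 0.10 (SE), edgeR adjusted p = 4.41e-04). The 1 member that rose, *mab21l2*, had 45.8 ± 1.66 CPM in WT and 54.5 ± 5.95 CPM in *rx3 strong* (SD, n = 4; log2 change 0.25 ± 0.08 (SE), edgeR adjusted p = 0.0437), and this call was lost without any of the 4 WT libraries or the *rx3 strong* libraries of ZT15 and ZT21.

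Of 12 genes of the retinal pigment epithelium and visual cycle, 7 were lower (58.3% called, against 19.2% of all genes). The median log2 change was -1.02. The retinoid isomerase gene *RPE65* (ENSDARG00000007480) had 52.7, 46.8, 40.1 and 67.9 CPM in WT, 4.90, 1.70, 2.204 and 3.32 CPM in *rx3 weak* and 2.45, 0.805, 0.754 and 3.005 CPM in *rx3 strong* (log2 change -4.98 ± 0.21 (SE), edgeR adjusted p = 2.14e-12). The interphotoreceptor retinoid carrier gene *rbp3* fell with a log2 change of -6.81. In turn, *rlbp1b*, which encodes a retinaldehyde carrier, fell with -3.73 and was not called against *rx3 weak* (log2 change 0.02 ± 0.19 (SE), edgeR adjusted p = 0.976). Of 14 genes of the pineal organ, 10 were lower (71.4% called, against 19.2% of all genes). Most of the lower ones also stand in other lists, so that this count is not one of the pineal organ alone. Both identifiers of *crx* and of *GRK7*, and *rbp3* and *saga*, are shared with the eye lists, and *LHX4* with the pituitary factors. *tph1a*, *tph2* and *bsx* were not called. The genes that make melatonin from serotonin changed less, with 1.13, 3.65, 6.07 and 3.502 CPM in the WT libraries and 0.876, 0.663, 1.36 and 2.37 CPM in the *rx3 strong* libraries for *aanat2* (log2 change -1.44 ± 0.32 (SE), edgeR adjusted p = 0.00331). For *asmt2*, the last enzyme of that pathway, the levels were 5.90 ± 1.36 CPM in WT and 3.99 ± 0.56 CPM in *rx3 strong* (SD, n = 4; log2 change -0.55 ± 0.15 (SE), edgeR adjusted p = 0.0135), with overlapping groups and a call that was lost without the WT library of ZT15 or the *rx3 strong* library of ZT9.

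Pituitary hormone transcripts differed by cell type. Of 10 genes matched in this list, 7 had enough reads to be tested. Of these, 2 were lower and 1 was higher (42.9% called, against 19.2% of all genes). Growth hormone, *gh1*, made by somatotropes, had 3.67, 6.11, 6.18 and 5.20 CPM in WT, 3.16, 4.61, 6.05 and 7.44 CPM in *rx3 weak* and 0.117, 0.142, 0.352 and 0.347 CPM in *rx3 strong* (log2 change -4.46 ± 0.28 (SE), edgeR adjusted p = 7.21e-10). Every *rx3 strong* library lay below every WT and *rx3 weak* library, while WT and *rx3 weak* overlapped (log2 change -4.44 ± 0.28 (SE), edgeR adjusted p = 2.67e-09 against *rx3 weak*). Prolactin, *prl*, had 2.32, 1.497, 2.82 and 2.33 CPM in the WT libraries and 0.993, 1.37, 1.31 and 0.636 CPM in the *rx3 strong* libraries (log2 change -0.998 ± 0.32 (SE), edgeR adjusted p = 0.0351), without overlap, but the call was lost without any 1 of the WT libraries of ZT3, ZT15 and ZT21 or of the *rx3 strong* libraries of ZT3, ZT15 and ZT21. Without such a library, 1 hormone gene in place of 2 was lower.

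The precursor of ACTH, *POMC*, had 3.13, 3.95, 3.94 and 4.51 CPM in WT, 4.17, 7.01, 8.54 and 8.87 CPM in *rx3 weak* and 3.56, 3.41, 4.02 and 7.22 CPM in *rx3 strong* (log2 change 0.19 ± 0.18 (SE), edgeR adjusted p = 0.522). Its whole-larva level overlapped between *rx3 strong* and WT, with the highest *rx3 strong* value at ZT21, and was below *rx3 weak* (log2 change -0.66 ± 0.17 (SE), edgeR adjusted p = 0.0156). The gene is also expressed in other pituitary cells and in the hypothalamus, so that its level in whole larvae does not count corticotropes. The second precursor gene *pomcb* had 0.442 ± 0.11 CPM in WT and 0.407 ± 0.193 CPM in *rx3 strong* (SD, n = 4; log2 change -0.15 ± 0.41 (SE), edgeR adjusted p = 0.855). The glycoprotein hormone subunit gene *CGA* had 1.47 ± 0.713 CPM in WT and 1.94 ± 0.853 CPM in *rx3 strong* (SD, n = 4; log2 change 0.41 ± 0.30 (SE), edgeR adjusted p = 0.389). Somatolactin alpha, *smtla*, rose from 0.12 ± 0.109 to 0.513 ± 0.16 CPM (SD, n = 4; log2 change 2.02 ± 0.58 (SE), edgeR adjusted p = 0.0195), a call that was lost without the WT libraries of ZT3 or ZT9 or the *rx3 strong* library of ZT9 (0 higher). Its paralog *smtlb* had 0.399 ± 0.207 CPM in WT and 0.633 ± 0.147 CPM in *rx3 strong* (SD, n = 4; log2 change 0.69 ± 0.45 (SE), edgeR adjusted p = 0.319).

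Of 19 pituitary transcription factors and receptors, 6 were lower and 0 higher (31.6% called, against 19.2% of all genes). The median log2 change was -0.01. Against *rx3 weak*, 1 was lower and 0 higher, beside 7.07% lower and 5.06% higher among all genes. Most of the genes lower than WT also stand in other lists, so that this count is not one of the pituitary alone. *NR5A1* is shared with steroid synthesis, *LHX4* with the pineal genes, and *NEUROD1* and *pcsk1* with the endocrine pancreas. *LHX4*, a LIM homeobox factor of the developing pituitary, had 16.95, 12.6, 16.8 and 13.1 CPM in the WT libraries and 7.82, 11.1, 9.9 and 8.49 CPM in the *rx3 strong* libraries (log2 change -0.67 ± 0.14 (SE), edgeR adjusted p = 0.0016), with 7.52 ± 0.936 CPM in *rx3 weak*. *NEUROD1*, which corticotropes use and which is also a retinal and pancreatic gene, had 117, 221, 107 and 116 CPM in the WT libraries and 63.9, 73.8, 77.3 and 84.1 CPM in the *rx3 strong* libraries (log2 change -0.86 ± 0.15 (SE), edgeR adjusted p = 3.27e-04). Neither was called against *rx3 weak* (log2 change 0.32 and 0.10, edgeR adjusted p = 0.173 and 0.753). The receptor for corticotropin releasing hormone, *crhr1*, had 16.1 ± 1.28 CPM in WT and 14.6 ± 2.15 CPM in *rx3 strong* (SD, n = 4; log2 change -0.15 ± 0.10 (SE), edgeR adjusted p = 0.342).

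Hypothalamic peptide genes were mostly not called, with 5 of 35 lower and 1 higher (17.1% called against 19.2% of all genes). Both precursors of melanin concentrating hormone were lower, *pmchl* with 1.51, 2.69, 2.93 and 2.97 CPM in the WT libraries and 0.642, 0.474, 0.352 and 0.173 CPM in the *rx3 strong* libraries (log2 change -2.59 ± 0.36 (SE), edgeR adjusted p = 3.76e-05) and *PMCH* with a log2 change of -2.15. The groups did not overlap for either gene, and *rx3 weak* lay between them with 1.104 ± 0.223 CPM for *pmchl* and without overlap with either. *FEZF2*, a transcription factor of the early forebrain, had 15.1 ± 1.29 CPM in WT and 3.89 ± 0.39 CPM in *rx3 strong* (SD, n = 4; log2 change -1.96 ± 0.13 (SE), edgeR adjusted p = 1.49e-09) and 5.08 ± 0.336 CPM in *rx3 weak*. Corticotropin releasing hormone, *CRH*, which stimulates corticotropes, had 4.27, 2.75, 3.51 and 2.55 CPM in the WT libraries and 2.63, 2.61, 2.16 and 1.79 CPM in the *rx3 strong* libraries (log2 change -0.50 ± 0.20 (SE), edgeR adjusted p = 0.0889). Galanin, *GAL*, the 1 gene called higher, had 4.52 ± 0.818 CPM in WT and 6.23 ± 1.13 CPM in *rx3 strong* (SD, n = 4; log2 change 0.47 ± 0.16 (SE), edgeR adjusted p = 0.0482), with overlapping groups and a call lost without the WT library of ZT3, ZT9 or ZT15 or the *rx3 strong* library of ZT9 or ZT15.

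In the interrenal gland the last enzyme of cortisol synthesis stood out. Of 16 genes of steroid synthesis and cortisol handling, 4 were lower and 0 higher (25% called, against 19.2% of all genes). Of the lower ones, *NR5A1* also stands in the list of pituitary factors. Against *rx3 weak*, 5 of the 16 were lower, beside 7.07% of all genes. The 11-beta-hydroxylase gene *cyp11c1* had 2.97, 3.23, 11.6 and 17.7 CPM in WT, 0.596, 1.15, 2.49 and 1.602 CPM in *rx3 weak* and 0.876, 1.09, 0.955 and 0.636 CPM in *rx3 strong* (log2 change -3.06 ± 0.37 (SE), edgeR adjusted p = 7.33e-06). WT was highest at ZT21, the groups did not overlap, *rx3 weak* lay below WT as well, and *rx3 strong* was not called against it (log2 change -0.61 ± 0.43 (SE), edgeR adjusted p = 0.429). The cholesterol carrier gene *star* had 8.15, 8.86, 7.35 and 9.07 CPM in the WT libraries and 5.66, 5.83, 6.83 and 5.49 CPM in the *rx3 strong* libraries (log2 change -0.49 ± 0.13 (SE), edgeR adjusted p = 0.0149). The 17-alpha-hydroxylase gene *cyp17a2* had 1.304 ± 0.348 CPM in WT and 0.634 ± 0.222 CPM in *rx3 strong* (SD, n = 4; log2 change -1.03 ± 0.31 (SE), edgeR adjusted p = 0.0246). *NR5A1*, which encodes steroidogenic factor 1, had 0.987 ± 0.106 CPM in WT and 0.276 ± 0.0841 CPM in *rx3 strong* (SD, n = 4; log2 change -1.83 ± 0.41 (SE), edgeR adjusted p = 0.00388). For these 3 genes *rx3 weak* had 10.5 ± 0.652, 1.74 ± 0.123 and 0.733 ± 0.353 CPM, and *rx3 strong* was lower than *rx3 weak* (edgeR adjusted p = 2.91e-04, 0.00237 and 0.0455). Without the WT library of ZT9 or ZT21, or the *rx3 strong* library of ZT21, 2 genes in place of 4 were lower, since the calls of *star* and *cyp17a2* were lost, and that of *cyp17a2* also without the WT library of ZT3 or the *rx3 strong* library of ZT9. The glucocorticoid receptor gene *NR3C1* had 79.8 ± 5.12 CPM in WT and 91.7 ± 3.28 CPM in *rx3 strong* (SD, n = 4; log2 change 0.21 ± 0.08 (SE), edgeR adjusted p = 0.0831). The cortisol inactivating enzyme *hsd11b2* had 28.3 ± 6.28 CPM in WT and 23.98 ± 3.23 CPM in *rx3 strong* (SD, n = 4; log2 change -0.22 ± 0.11 (SE), edgeR adjusted p = 0.169).

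Genes known from other vertebrates as direct or well-established targets of the glucocorticoid receptor were lower more often than they were higher. Of 41 tested, 21 were lower and 3 higher (58.5% called, against 19.2% of all genes), with a median log2 change of -0.35. Against *rx3 weak*, 20 were lower and 2 higher, beside 7.07% lower and 5.06% higher among all genes. The list was written with results of these libraries known, and it shares members with the muscle, clock, lipid and xenobiotic lists.

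*FKBP5*, a chaperone partner that dampens the receptor and is itself induced by it, had 88.0, 77.9, 83.8 and 206 CPM in WT, 69.8, 112, 100.03 and 152 CPM in *rx3 weak* and 16.1, 19.5, 11.4 and 8.20 CPM in *rx3 strong* (log2 change -2.92 ± 0.27 (SE), edgeR adjusted p = 2.10e-07). WT and *rx3 weak* were highest at ZT21, where *rx3 strong* was lowest, and the groups did not overlap (log2 change -2.89 ± 0.27 (SE), edgeR adjusted p = 5.16e-07 against *rx3 weak*). The receptor-induced transcription factor gene *KLF9* had 21.6, 16.9, 21.2 and 45.5 CPM in WT, 23.1, 30.1, 30.7 and 46.3 CPM in *rx3 weak* and 4.90, 5.12, 6.33 and 8.49 CPM in *rx3 strong* (log2 change -2.03 ± 0.13 (SE), edgeR adjusted p = 1.62e-09), again without overlap. *LPIN1*, a phosphatidate phosphatase of lipid synthesis, had 132, 74.7, 98.9 and 326 CPM in the WT libraries and 62.7, 50.4, 58.3 and 133 CPM in the *rx3 strong* libraries (log2 change -0.94 ± 0.11 (SE), edgeR adjusted p = 2.88e-06). It was lower than WT at each time point, yet its ZT21 value in *rx3 strong* exceeded 3 of the WT values, so that the groups overlapped. The intestinal and renal sodium-glucose transporter gene *SLC5A1* had 53.2 ± 7.65 CPM in WT and 28.8 ± 3.67 CPM in *rx3 strong* (SD, n = 4; log2 change -0.88 ± 0.09 (SE), edgeR adjusted p = 4.68e-07), without overlap.

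Smaller or time-dependent falls were seen in other targets. The glucose-6-phosphatase gene *g6pca.2*, which releases free glucose, had 103, 71.0, 43.2 and 85.3 CPM in the WT libraries and 42.2, 34.5, 31.3 and 46.0 CPM in the *rx3 strong* libraries (log2 change -0.91 ± 0.14 (SE), edgeR adjusted p = 1.48e-04). *FBXO32*, a ubiquitin ligase of muscle protein breakdown, had 11.01, 10.8, 49.9 and 53.3 CPM in WT, 12.005, 22.3, 89.4 and 58.2 CPM in *rx3 weak* and 8.12, 11.8, 8.29 and 14.04 CPM in *rx3 strong* (log2 change -1.23 ± 0.33 (SE), edgeR adjusted p = 0.0135). It was close to WT by day and below WT by night, the groups overlapped, and the call was lost without the ZT21 library of either genotype. *CEBPD*, *ABCB4*, *sgk1* and *tsc22d3* had log2 changes of -0.64, -0.90, -0.47 and -0.35, with overlapping groups for all but *sgk1*. *pck1*, the entry enzyme of gluconeogenesis, had an adjusted p at the threshold (log2 change -0.60 ± 0.21 (SE), edgeR adjusted p = 0.0501) and is described with the day and night values. For the clock gene *PER1* (ENSDARG00000056885) the fall was small (log2 change -0.44 ± 0.14 (SE), edgeR adjusted p = 0.0382), the groups overlapped, and the call was lost without the ZT21 library of either genotype, the WT library of ZT3 or the *rx3 strong* library of ZT3. Another 3 members rose. The zinc finger factor gene *zbtb16b*, which mammalian glucocorticoids induce, had 21.6 ± 2.90 CPM in WT and 31.5 ± 3.49 CPM in *rx3 strong* (SD, n = 4; log2 change 0.55 ± 0.09 (SE), edgeR adjusted p = 2.84e-04). The tyrosine aminotransferase gene *tat* had 47.1 ± 14.6 CPM in WT and 67.4 ± 20.4 CPM in *rx3 strong* (SD, n = 4; log2 change 0.54 ± 0.13 (SE), edgeR adjusted p = 0.00523), and the transcription factor gene *CEBPB* had a log2 change of 0.60.

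**Figure D2:**
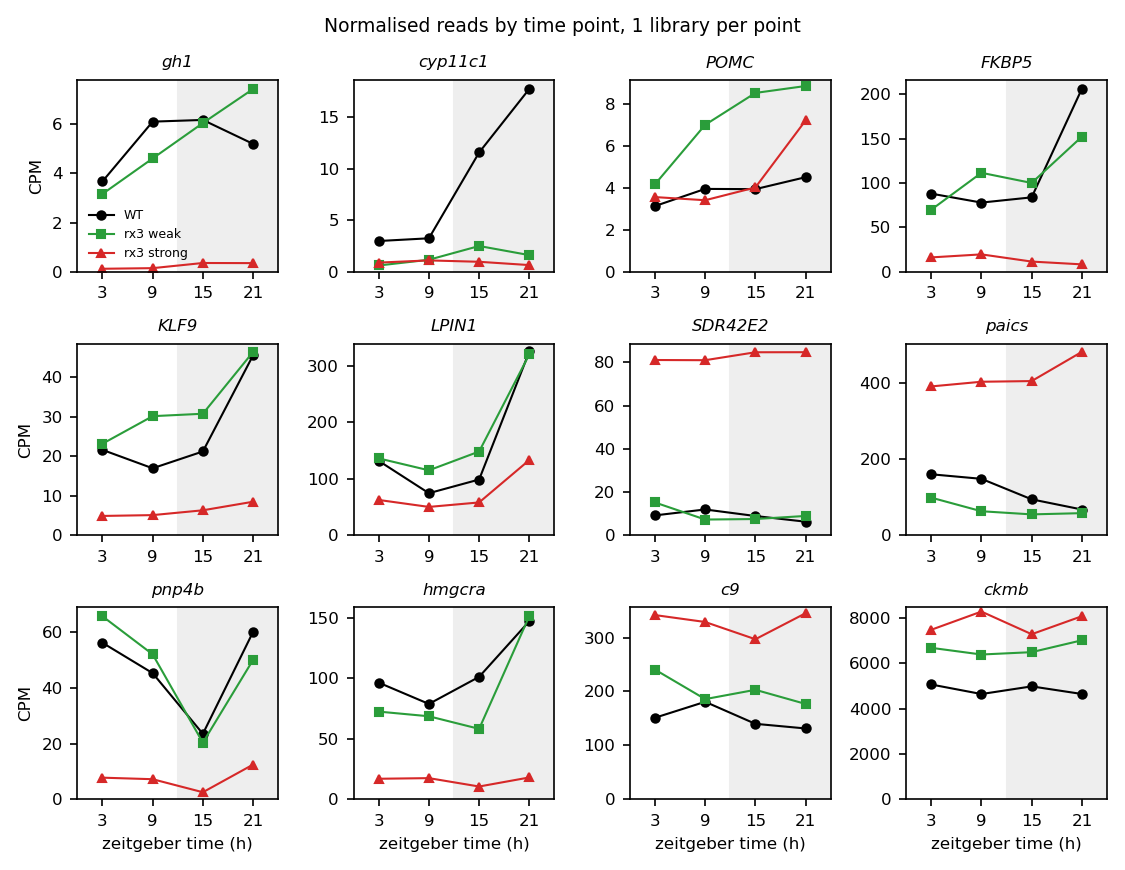
Level in CPM (y axis, from 0) at each *Zeitgeber* time in hours (x axis, dark phase shaded) for 12 genes, with 1 library per point, in WT (circles), *rx3 weak* (squares) and *rx3 strong* (triangles). *gh1*, *FKBP5*, *KLF9*, *pnp4b* and *hmgcra* were below both other genotypes at every time point, *SDR42E2* and *paics* above both, and *cyp11c1* was low in both mutants (log2 change -3.06 against WT and -0.61 against *rx3 weak*).

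Among the genes that rose, the 12 with the largest change and a mean of at least 50 reads were led by an oxidase of epithelia and the thyroid. *duox*, which makes hydrogen peroxide and is needed for thyroid hormone synthesis, had 0.432, 1.197, 0.692 and 0.743 CPM in WT, 1.97, 0.952, 2.204 and 3.32 CPM in *rx3 weak* and 14.4, 12.4, 11.9 and 12.5 CPM in *rx3 strong* (log2 change 4.08 ± 0.28 (SE), edgeR adjusted p = 3.03e-09). All *rx3 strong* libraries lay above all others (log2 change 2.63 ± 0.24 (SE), edgeR adjusted p = 3.71e-07 against *rx3 weak*). Its maturation partner *DUOXA1*, picked after its values were seen, had 0, 0.12, 0.0532 and 0.0531 CPM in the WT libraries and 0.584, 0.711, 0.955 and 0.693 CPM in the *rx3 strong* libraries (log2 change 3.60 ± 0.61 (SE), edgeR adjusted p = 3.09e-04). *SDR42E2*, a member of the short-chain dehydrogenase family, had 9.23, 11.97, 8.94 and 6.32 CPM in WT, 15.2, 7.31, 7.55 and 8.98 CPM in *rx3 weak* and 81.1, 81.0, 84.7 and 84.7 CPM in *rx3 strong* (log2 change 3.203 ± 0.18 (SE), edgeR adjusted p = 1.12e-10). It was steady over the day in *rx3 strong* and 9.21-fold higher than WT.

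The D-amino acid oxidase gene *dao.1* had 3.29, 0.838, 1.70 and 0.318 CPM in WT, 14.7, 3.76, 3.47 and 4.004 CPM in *rx3 weak* and 7.30, 7.63, 6.13 and 13.3 CPM in *rx3 strong* (log2 change 2.65 ± 0.42 (SE), edgeR adjusted p = 1.47e-04), and was not called against *rx3 weak* (log2 change 0.66 ± 0.35 (SE), edgeR adjusted p = 0.27). The cytochrome P450 gene *cyp2aa4* had 4.54, 5.63, 4.47 and 3.502 CPM in the WT libraries and 20.6, 21.2, 25.3 and 24.8 CPM in the *rx3 strong* libraries (log2 change 2.35 ± 0.19 (SE), edgeR adjusted p = 2.78e-08). The efflux transporter gene *abcg2b* had 15.6, 6.53, 5.16 and 20.5 CPM in WT, 79.6, 49.3, 41.6 and 81.2 CPM in *rx3 weak* and 54.2, 37.7, 32.5 and 61.9 CPM in *rx3 strong* (log2 change 2.06 ± 0.14 (SE), edgeR adjusted p = 3.03e-09), and lay lower in *rx3 strong* than in *rx3 weak* (log2 change -0.42 ± 0.13 (SE), edgeR adjusted p = 0.0361). *mthfd1l*, a mitochondrial enzyme of folate one-carbon metabolism, had 47.1, 36.8, 29.9 and 8.70 CPM in the WT libraries and 97.1, 99.90, 111 and 96.5 CPM in the *rx3 strong* libraries (log2 change 1.94 ± 0.28 (SE), edgeR adjusted p = 4.46e-05), without overlap. The keratin gene *cyt1l* and the ictacalcin gene *icn2*, both of the skin, had 192 ± 37.9 CPM in WT and 572 ± 34.03 CPM in *rx3 strong* and 51.8 ± 9.42 CPM in WT and 148 ± 18.3 CPM in *rx3 strong* (SD, n = 4), with log2 changes of 1.597 and 1.55. The vitellogenin gene *vtg7* and the complement gene *c6.1* had log2 changes of 1.51 and 1.56 at low levels (10.25 ± 3.64 and 4.02 ± 1.14 CPM in *rx3 strong*).

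Liver genes, for secreted proteins and other liver markers, were higher more often than lower. Of 33 tested, 16 were higher and 6 lower (median log2 change 0.30), against 8.66% higher and 10.5% lower among all genes. Against *rx3 weak*, 14 were higher and 6 lower, beside 5.06% higher and 7.07% lower among all genes. Ceruloplasmin, *CP*, the copper protein of plasma, had 102, 115, 71.9 and 85.2 CPM in WT, 123, 149, 118 and 116 CPM in *rx3 weak* and 203, 203, 213 and 239 CPM in *rx3 strong* (log2 change 1.22 ± 0.11 (SE), edgeR adjusted p = 9.21e-08). All *rx3 strong* libraries were above WT. Apolipoprotein B, the core protein of very low density lipoprotein, was represented by *APOB* with 618 ± 231 CPM in WT and 1191 ± 213 CPM in *rx3 strong* (SD, n = 4; log2 change 1.02 ± 0.12 (SE), edgeR adjusted p = 7.06e-06). The related genes *apobb.1* and *apobb.2* had log2 changes of 0.69 and 1.66. Apolipoprotein A1, *apoa1a*, had 1419.9, 1232, 951 and 603 CPM in the WT libraries and 1601, 1782, 1942 and 1768 CPM in the *rx3 strong* libraries (log2 change 0.84 ± 0.15 (SE), edgeR adjusted p = 6.61e-04). From in situ hybridization of embryos, the study reported a widened *apoa1* domain in the subpallial telencephalon of *rx3 strong* alone. The part of the liver in the rise of *apoa1a* was not tested. The liver genes *fabp10a*, *TTR* and *serpina1* were not called (log2 change 0.168, 0.155 and 0.181). Other liver genes went down, among them *hpxa*, *ahsg2* and *ahsg1* (log2 change -1.793, -1.26 and -0.927). Apolipoprotein E, *apoeb*, had 616 ± 43.8 CPM in WT and 404 ± 46.0 CPM in *rx3 strong* (SD, n = 4, log2 change -0.61 ± 0.08 (SE), edgeR adjusted p = 2.79e-05). The P450 gene *cyp3a65*, also of the intestine, had 216 ± 109 CPM in WT and 85.3 ± 45.9 CPM in *rx3 strong* (SD, n = 4; log2 change -1.35 ± 0.09 (SE), edgeR adjusted p = 8.66e-10). The summed level of the list was 9934 to 16456 CPM in WT and 18390.4 to 20656 CPM in *rx3 strong*.

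Complement, the plasma cascade of innate immunity that the liver makes, was higher as a group. Of 21 genes tested, 14 were higher and 0 lower, with a median log2 change of 0.59, and 14 lay entirely above WT in all libraries, against 6.96% of all genes. The pore protein gene *c9* had 151, 181, 139.9 and 131 CPM in WT, 241, 186, 203 and 177 CPM in *rx3 weak* and 342, 329, 297 and 345 CPM in *rx3 strong* (log2 change 1.13 ± 0.10 (SE), edgeR adjusted p = 7.51e-08). *rx3 strong* exceeded both other genotypes in every library (log2 change 0.71 ± 0.10 (SE), edgeR adjusted p = 4.55e-05 against *rx3 weak*). The central component *c3a.1* had 528, 577, 523 and 395 CPM in the WT libraries and 954, 979.9, 842 and 1016 CPM in the *rx3 strong* libraries (log2 change 0.92 ± 0.09 (SE), edgeR adjusted p = 9.56e-07), and *c4b*, *c5* and factor B, *cfb*, had log2 changes of 1.44, 0.95 and 0.91. The list was at 14 higher genes with the total count as scaling as well, with 1 gene then lower. The summed level was 1056 to 1371 CPM in WT, 1408 to 1707 in *rx3 weak* and 1939 to 2270.3 in *rx3 strong*.

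Inflammation and acute phase genes went both ways, with 5 of 25 higher and 4 lower (36% called against 19.2% of all genes, median log2 change 0.01). The C-reactive protein gene *crp3* had 17.4 ± 0.946 CPM in WT and 29.8 ± 8.67 CPM in *rx3 strong* (SD, n = 4; log2 change 0.76 ± 0.16 (SE), edgeR adjusted p = 0.00228), and the immediate early gene *JUNB* had 8.29 ± 1.46 CPM in WT and 4.74 ± 1.07 CPM in *rx3 strong* (SD, n = 4; log2 change -0.82 ± 0.17 (SE), edgeR adjusted p = 0.00197). The higher count was 3 without the WT library of ZT21, and the lower count was 2 without the WT library of ZT3 and 1 without the WT library of ZT15 or ZT21 or the *rx3 strong* library of ZT3 or ZT9. Of 20 neutrophil and macrophage markers 20% were called, close to the 19.2% of all genes, with 3 higher and 1 lower. The higher count was between 0 and 3 when 1 library was left out. The lower member was the macrophage gene *MPEG1* (ENSDARG00000043093). It had 19.1 ± 5.31 CPM in WT and 10.7 ± 1.55 CPM in *rx3 strong* (SD, n = 4, log2 change -0.82 ± 0.12 (SE), edgeR adjusted p = 7.80e-05), with overlapping groups. The other *MPEG1* identifier, ENSDARG00000055290, was not called (log2 change 0.22).

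Enzymes of sterol synthesis were lower more often than higher. Of 36 genes tested, 18 were lower and 1 higher (median log2 change -0.39), against 10.5% lower and 8.66% higher among all genes. Against *rx3 weak*, 16 were lower and 0 higher, beside 7.07% lower and 5.06% higher among all genes. The gene of the rate-limiting HMG-CoA reductase, *hmgcra*, had 96.4, 78.7, 101 and 147 CPM in WT, 72.4, 68.5, 58.1 and 152 CPM in *rx3 weak* and 16.8, 17.3, 10.4 and 17.9 CPM in *rx3 strong* (log2 change -2.74 ± 0.16 (SE), edgeR adjusted p = 2.59e-10). Both WT and *rx3 weak* were highest at ZT21, and all their libraries lay above *rx3 strong* (log2 change -2.404 ± 0.16 (SE), edgeR adjusted p = 5.37e-09 against *rx3 weak*). HMG-CoA synthase, *hmgcs1*, which feeds that step, had 137, 97.6, 106 and 106 CPM in the WT libraries and 34.8, 35.1, 31.96 and 23.98 CPM in the *rx3 strong* libraries (log2 change -1.81 ± 0.16 (SE), edgeR adjusted p = 8.57e-08). The second reductase gene, *hmgcrb*, was not called against WT (log2 change -0.085). Squalene epoxidase, *sqlea*, and lanosterol demethylase, *cyp51*, of the later part of the pathway, had log2 changes of -2.24 and -1.54. The 1 call of a higher gene in this list was lost without the WT library of ZT3, ZT15 or ZT21 or the *rx3 strong* library of ZT15 or ZT21.

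In fatty acid and lipid synthesis 6 of 23 genes were lower and 0 higher (26.1% called, against 19.2% of all genes). *ELOVL2*, which elongates polyunsaturated fatty acids, had 32.7, 25.7, 24.01 and 38.4 CPM in WT, 34.2, 30.3, 23.4 and 36.2 CPM in *rx3 weak* and 10.3, 13.1, 9.30 and 9.13 CPM in *rx3 strong* (log2 change -1.504 ± 0.13 (SE), edgeR adjusted p = 9.58e-08). *rx3 strong* was lower than each other genotype without overlap with WT (log2 change -1.54 ± 0.13 (SE), edgeR adjusted p = 1.62e-07 against *rx3 weak*). Fatty acid oxidation and ketogenesis had 17.1% of 35 genes called, against 19.2% of all genes.

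Purine genes went in both directions, with 6 of 28 higher and 8 lower (50% called, against 19.2% of all genes). Among the higher genes were enzymes of the branch that makes inosine monophosphate. *paics*, which carries 2 steps of that branch, had 161, 149, 94.8 and 68.0 CPM in WT, 99.3, 63.5, 55.2 and 58.5 CPM in *rx3 weak* and 392, 404, 406 and 483 CPM in *rx3 strong* (log2 change 1.91 ± 0.18 (SE), edgeR adjusted p = 2.17e-07). Levels fell from ZT3 to ZT21 in WT but not in *rx3 strong*, where they were highest at ZT21, and the groups did not overlap. *atic* and *gart*, enzymes of the same branch, had 23.4 ± 8.89 CPM in WT and 42.03 ± 3.81 CPM in *rx3 strong* and 36.2 ± 7.35 CPM in WT and 61.0 ± 4.07 CPM in *rx3 strong* (SD, n = 4), with log2 changes of 0.92 and 0.77. Among the lower genes were enzymes of purine breakdown and salvage. The purine nucleoside phosphorylase gene *pnp4b* had 56.3, 45.3, 23.5 and 60.18 CPM in WT, 65.8, 52.1, 20.3 and 50.1 CPM in *rx3 weak* and 7.71, 7.15, 2.46 and 12.4 CPM in *rx3 strong* (log2 change -2.70 ± 0.15 (SE), edgeR adjusted p = 9.32e-11). All genotypes were lowest at ZT15, and *rx3 strong* was below both others at each time point. Guanine deaminase, *gda*, had 24.2, 11.97, 2.98 and 33.3 CPM in the WT libraries and 6.13, 5.07, 1.81 and 6.41 CPM in the *rx3 strong* libraries (log2 change -1.72 ± 0.25 (SE), edgeR adjusted p = 5.95e-05), with overlapping groups. Without the WT library of ZT3, 5 purine genes in place of 8 were lower.

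Glycine, serine and glyoxylate genes were more often higher. Of 35 tested, 14 were higher and 5 lower (54.3% called, against 19.2% of all genes), with a median log2 change of 0.21. Glyoxylate reductase, *grhprb*, had 284, 269.6, 244 and 239 CPM in the WT libraries and 449, 463, 461 and 491 CPM in the *rx3 strong* libraries (log2 change 0.85 ± 0.09 (SE), edgeR adjusted p = 7.46e-07). Betaine-homocysteine methyltransferase, *bhmt*, had 1468, 1299, 1052 and 825 CPM in the WT libraries and 2096, 1990.4, 1749 and 2302 CPM in the *rx3 strong* libraries (log2 change 0.84 ± 0.12 (SE), edgeR adjusted p = 3.99e-05). Both lay above WT in every library. The first enzyme of serine synthesis, *phgdh*, and sarcosine dehydrogenase, *sardh*, had log2 changes of 0.69 and 0.80. In contrast, *agxtb*, which turns glyoxylate into glycine, had 198, 125, 115 and 189 CPM in WT, 203, 123, 96.1 and 155 CPM in *rx3 weak* and 58.7, 35.1, 43.8 and 56.0 CPM in *rx3 strong* (log2 change -1.68 ± 0.10 (SE), edgeR adjusted p = 2.77e-10). It was below both other genotypes throughout. Without the WT library of ZT9 or the *rx3 strong* library of ZT3, 3 genes of this list in place of 5 were lower.

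Of 23 genes of the ornithine-urea cycle and glutamine metabolism, 7 were lower (43.5% called in either direction, against 19.2% of all genes). Carbamoyl phosphate synthetase and ornithine transcarbamylase, the first enzymes of the cycle, were both low. *cps1* had 7.67, 4.91, 6.60 and 4.62 CPM in the WT libraries and 0.993, 0.521, 1.06 and 1.16 CPM in the *rx3 strong* libraries (log2 change -2.67 ± 0.24 (SE), edgeR adjusted p = 1.32e-07). The transcarbamylase gene *otc* had 3.35, 3.41, 2.98 and 4.19 CPM in the WT libraries and 0.234, 0.0474, 0.251 and 0.173 CPM in the *rx3 strong* libraries (log2 change -4.27 ± 0.36 (SE), edgeR adjusted p = 6.19e-08). *rx3 weak* lay between, with 1.67 ± 0.445 and 0.702 ± 0.158 CPM (SD, n = 4). Glutaminase 2, *GLS2* (ENSDARG00000002917), which releases ammonia from glutamine, had 9.07, 9.998, 12.3 and 18.5 CPM in WT, 14.2, 13.6, 22.4 and 21.2 CPM in *rx3 weak* and 2.92, 2.98, 3.87 and 5.78 CPM in *rx3 strong* (log2 change -1.68 ± 0.14 (SE), edgeR adjusted p = 3.53e-08), and *rx3 strong* was below both. Ornithine aminotransferase, *oat*, had a log2 change of -0.94. Another 3 genes of the list were called higher, and 1 without the WT library of ZT3, ZT9 or ZT15 or the *rx3 strong* library of ZT9 or ZT15.

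Glycolysis and gluconeogenesis had 16 of 46 genes lower and 8 higher (52.2% called, against 19.2% of all genes). The glyceraldehyde phosphate dehydrogenase gene *gapdh*, abundant in muscle, rose, with 677 ± 40.5 CPM in WT and 1095 ± 198 CPM in *rx3 strong* (SD, n = 4; log2 change 0.68 ± 0.10 (SE), edgeR adjusted p = 3.86e-05). *eno1b*, an enolase, had 59.7, 49.99, 43.02 and 67.7 CPM in WT, 27.3, 18.6, 17.6 and 21.2 CPM in *rx3 weak* and 22.6, 22.6, 17.8 and 21.03 CPM in *rx3 strong* (log2 change -1.38 ± 0.10 (SE), edgeR adjusted p = 8.23e-09), with a log2 change of 0.00 against *rx3 weak*. The lactate dehydrogenase gene *ldhbb* had 30.4 ± 9.6 CPM in WT and 12.3 ± 2.31 CPM in *rx3 strong* (SD, n = 4; log2 change -1.28 ± 0.10 (SE), edgeR adjusted p = 3.34e-08), the phosphofructokinase gene *pfkma* had a log2 change of -0.59, and the glucose transporter gene *slc2a1a* had 15.5 ± 8.42 CPM in WT and 5.002 ± 1.42 CPM in *rx3 strong* (SD, n = 4; log2 change -1.53 ± 0.24 (SE), edgeR adjusted p = 1.36e-04). Without the *rx3 strong* library of ZT9, 10 genes in place of 16 were lower, and without the WT library of ZT15 or ZT21, 5 in place of 8 were higher.

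Digestive organs changed gene by gene. Of 35 pancreatic enzyme genes, 9 were lower and 6 higher than WT (42.9% called, against 19.2% of all genes). Against *rx3 weak*, 21 were lower and 1 higher, beside 7.07% lower and 5.06% higher among all genes. The chymotrypsinogen gene *ctrb.2* had 94.2, 119, 148 and 226 CPM in WT, 134, 154, 215 and 254 CPM in *rx3 weak* and 18.9, 29.6, 35.7 and 57.0 CPM in *rx3 strong* (log2 change -2.08 ± 0.09 (SE), edgeR adjusted p = 5.70e-12). The phospholipase gene *PLA2G1B* had 26.7 ± 15.99 CPM in WT and 7.21 ± 3.27 CPM in *rx3 strong* (SD, n = 4; log2 change -1.81 ± 0.15 (SE), edgeR adjusted p = 5.58e-08). Neither overlapped with WT. The bile salt-dependent lipase gene *cel.2* went the other way, with 51.4, 62.98, 66.6 and 86.8 CPM in WT, 145, 148, 179.1 and 194 CPM in *rx3 weak* and 176, 167, 219 and 189.7 CPM in *rx3 strong* (log2 change 1.51 ± 0.09 (SE), edgeR adjusted p = 5.85e-10), high in both mutants (log2 change 0.18 ± 0.09 (SE), edgeR adjusted p = 0.213 against *rx3 weak*). The summed level of the list was 5254 to 10019 CPM in WT and 5619 to 9111 CPM in *rx3 strong*. In the endocrine pancreas list, 2 of 12 genes were higher and 3 lower (41.7% called, against 19.2% of all genes). The median log2 change was -0.01. Insulin, *ins*, was among the higher ones, with 7.89 ± 1.33 CPM in WT and 12.9 ± 2.12 CPM in *rx3 strong* (SD, n = 4, log2 change 0.71 ± 0.14 (SE), edgeR adjusted p = 0.00115). Among the lower ones were *PAX6* and *NEUROD1* (log2 change -2.54 and -0.86), which stand in other lists as well.

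Of 39 intestinal genes, 15 were lower and 3 higher (46.2% called, against 19.2% of all genes). Against *rx3 weak*, 19 were lower and 1 higher, beside 7.07% lower and 5.06% higher among all genes. The fatty acid binding protein gene *fabp2* of absorptive cells had 810.4, 757, 535 and 694 CPM in the WT libraries and 438, 445, 338 and 367 CPM in the *rx3 strong* libraries (log2 change -0.81 ± 0.08 (SE), edgeR adjusted p = 4.01e-07). The amino acid transporter gene *SLC6A19* (ENSDARG00000018621) had 27.4, 19.6, 31.0 and 84.9 CPM in the WT libraries and 7.998, 7.72, 11.8 and 22.4 CPM in the *rx3 strong* libraries (log2 change -1.62 ± 0.13 (SE), edgeR adjusted p = 1.98e-08), with overlapping groups, and the chitinase gene *chia.3* had a log2 change of -0.79. The retinol binding protein gene *RBP2* (ENSDARG00000093774) was higher in each library, with 71.5 ± 6.70 CPM in WT and 151 ± 17.9 CPM in *rx3 strong* (SD, n = 4; log2 change 1.09 ± 0.14 (SE), edgeR adjusted p = 9.54e-06). The higher count was 1 in place of 3 without the ZT21 library of either genotype or the WT library of ZT3. Of 30 genes of xenobiotic metabolism, 10 were lower and 6 higher (53.3% called, against 19.2% of all genes), *cyp3a65* and *cyp2aa4* among them.

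Skeletal muscle genes were higher more often than lower, by small steps. Of 35 tested, 22 were higher and 2 lower (median log2 change 0.36), against 8.66% higher and 10.5% lower among all genes. Entirely above WT lay 18, against 6.96% of all genes, and 7 were higher than *rx3 weak*, against 5.06% of all genes. Muscle creatine kinase, *ckmb*, had 5061, 4639, 4978 and 4641 CPM in WT, 6681, 6385, 6489 and 7013 CPM in *rx3 weak* and 7477, 8282, 7282 and 8077 CPM in *rx3 strong* (log2 change 0.69 ± 0.08 (SE), edgeR adjusted p = 2.81e-06). Its levels were ordered WT, *rx3 weak* and *rx3 strong*, with 4829.9 ± 222, 6642 ± 276 and 7779 ± 476 CPM (SD, n = 4), and the step from *rx3 weak* to *rx3 strong* was not called (log2 change 0.23 ± 0.08 (SE), edgeR adjusted p = 0.0645). The calcium pump gene *atp2a1* had 6157 ± 73.9 CPM in WT and 9085 ± 178 CPM in *rx3 strong* (SD, n = 4; log2 change 0.56 ± 0.07 (SE), edgeR adjusted p = 1.25e-05). Myoglobin, *mb*, was lower (21.7 ± 1.90 CPM in WT and 13.2 ± 1.11 CPM in *rx3 strong*, SD, n = 4; log2 change -0.71 ± 0.10 (SE), edgeR adjusted p = 3.18e-05), and the lower count was 1 in place of 2 without the WT library of ZT3 or the *rx3 strong* library of ZT15. The summed level of the list was 77083 to 83384 CPM in WT, 88659.9 to 95848 CPM in *rx3 weak* and 100695 to 122174 CPM in *rx3 strong*.

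Among all called genes with a name, those with most reads were the myosin heavy chain gene *myhz1.1* (log2 change 0.33), the skin keratin gene *krt4*, *atp2a1* and the tropomyosin gene *tpma* (log2 change 0.37), a ranking by reads and not per length. The largest of these steps was that of *krt4*, with 9413, 9339, 8005 and 6238 CPM in WT, 11225, 8431, 8786 and 8057 CPM in *rx3 weak* and 16660.0, 16619, 15516 and 16931 CPM in *rx3 strong* (log2 change 1.01 ± 0.10 (SE), edgeR adjusted p = 6.34e-07). The *rx3 strong* libraries lay above all others. The share of counts in the 10 genes with most reads was higher in *rx3 strong* (9.63% to 10.96%) than in WT (7.16% to 7.6%), and its part in the small rises of muscle and liver genes was not tested beyond the scaling by total counts, under which 14 complement, 21 muscle and 13 liver genes were higher. The call of *tpma* was lost without the WT library of ZT3, ZT15 or ZT21 or the *rx3 strong* library of ZT21.

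**Figure D3:**
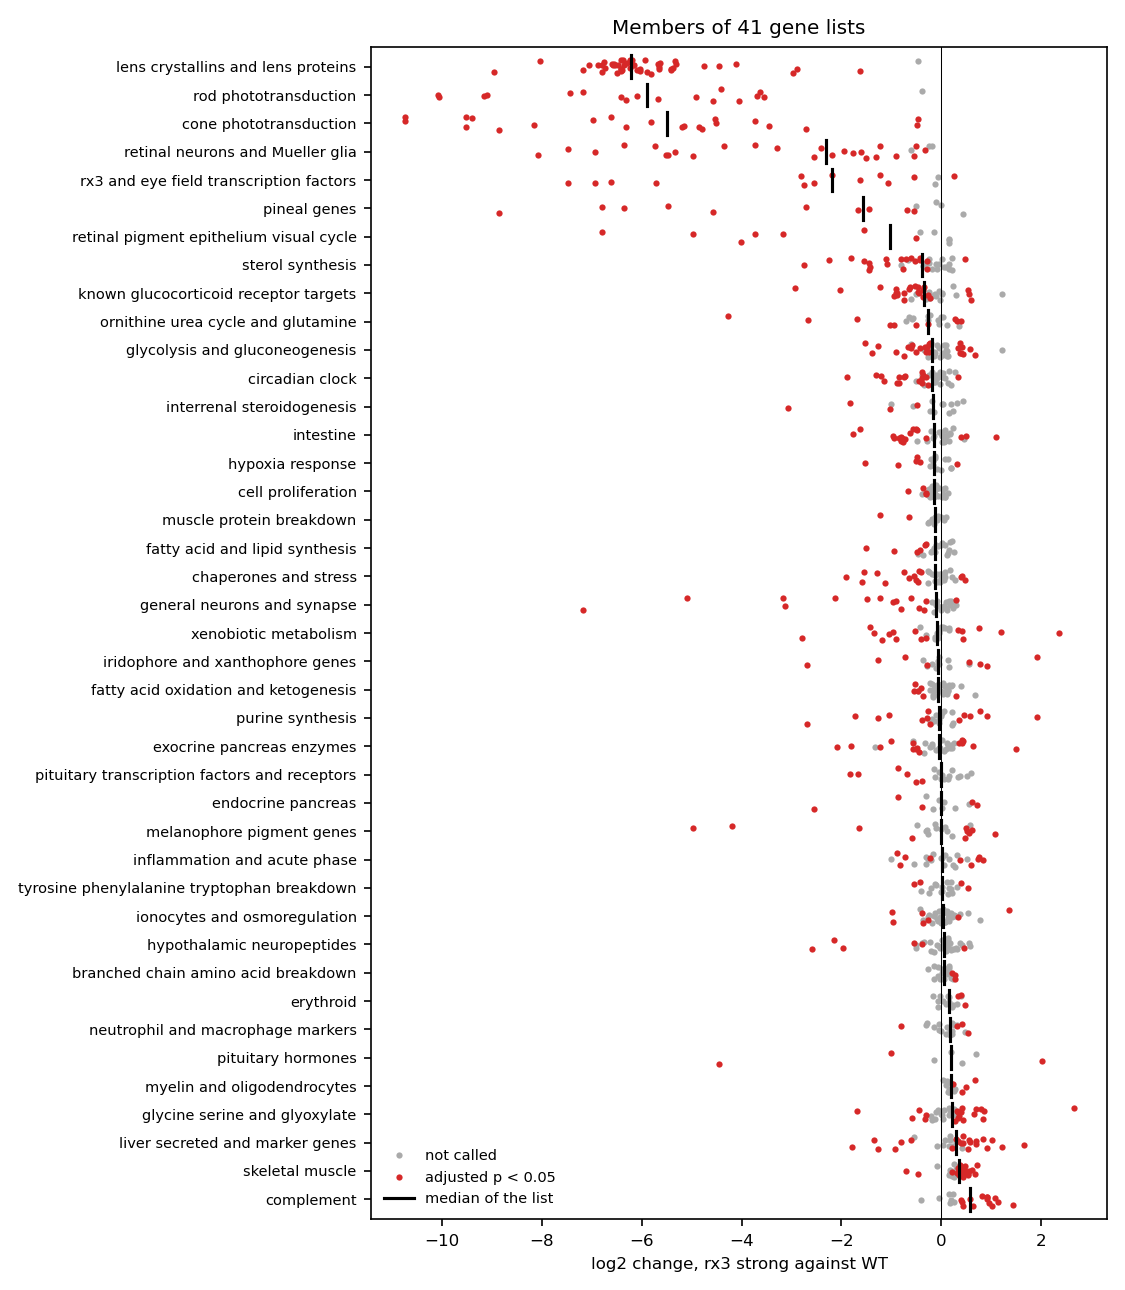
log2 change of *rx3 strong* against WT (x axis) for each tested member of 41 gene lists, 1 point per gene, with called genes in red, others in grey and a black bar at the median of the list. The lens, rod and cone lists had medians of -6.22, -5.89 and -5.50, and the complement list at the other end had 0.59.

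Stress genes were lower in part. Of 37 chaperone and stress genes, 12 were lower and 3 higher (40.5% called, against 19.2% of all genes). The cytosolic chaperone gene *HSP90AA1*, which folds the glucocorticoid receptor among others, had 116, 82.9, 53.3 and 66.6 CPM in WT, 66.0, 56.3, 33.3 and 20.99 CPM in *rx3 weak* and 45.5, 51.7, 16.7 and 23.3 CPM in *rx3 strong* (log2 change -1.29 ± 0.16 (SE), edgeR adjusted p = 6.29e-06). *rx3 strong* was not called against *rx3 weak* (log2 change -0.38 ± 0.16 (SE), edgeR adjusted p = 0.136). The related chaperone genes *hsp90aa1.1* and *HSP90AB1* were not called against WT (log2 change 0.078 and 0.185). Heme oxygenase, *HMOX1*, had 21.8, 21.6, 39.9 and 17.5 CPM in the WT libraries and 6.36, 9.05, 10.101 and 6.93 CPM in the *rx3 strong* libraries (log2 change -1.59 ± 0.13 (SE), edgeR adjusted p = 2.29e-08). The heat shock gene *hsp70l*, which is also expressed in the lens, had 4.09 ± 1.22 CPM in WT and 1.13 ± 0.435 CPM in *rx3 strong* (SD, n = 4; log2 change -1.91 ± 0.35 (SE), edgeR adjusted p = 6.61e-04). Of 31 cell cycle genes, 4 were lower and 0 higher (12.9% called, against 19.2% of all genes). The lower count was between 2 and 5 when 1 library was left out. The cell cycle inhibitor gene *cdkn1a* was lower (36.0 ± 31.5 CPM in WT and 21.7 ± 18.7 CPM in *rx3 strong*, SD, n = 4, log2 change -0.66 ± 0.13 (SE), edgeR adjusted p = 0.00144). Its call was lost with limma on the deposited log2 values and in the fit without the time factor.

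Clock genes had 16 of 41 members lower over the day and 1 higher (41.5% called, against 19.2% of all genes). The median log2 change was -0.17, and 2 members were lower than *rx3 weak*, against 7.07% of all genes. The output factor gene *hlfa* had 115, 114, 67.8 and 158 CPM in WT, 72.1, 74.8, 46.2 and 86.5 CPM in *rx3 weak* and 50.3, 52.5, 38.3 and 59.3 CPM in *rx3 strong* (log2 change -1.14 ± 0.09 (SE), edgeR adjusted p = 1.02e-08), without overlap. The repressor gene *nfil3-6* had 40.5, 28.7, 3.83 and 14.4 CPM in the WT libraries and 12.4, 5.07, 2.71 and 2.66 CPM in the *rx3 strong* libraries (log2 change -1.88 ± 0.22 (SE), edgeR adjusted p = 4.30e-06), with overlapping groups. The nuclear receptor gene *RORB*, which is also a retinal gene, had 11.7 ± 1.18 CPM in WT and 4.68 ± 0.669 CPM in *rx3 strong* (SD, n = 4; log2 change -1.31 ± 0.14 (SE), edgeR adjusted p = 2.02e-06). The member that was higher, *tefa*, had 288 ± 303 CPM in WT and 346 ± 345 CPM in *rx3 strong* (SD, n = 4; log2 change 0.35 ± 0.08 (SE), edgeR adjusted p = 0.007), and 0 were higher without the WT library of ZT9, and 2 without the ZT21 library of either genotype. These are levels averaged over 4 time points, not rhythms.

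General neuronal and synaptic genes had 14 of 34 lower (44.1% called in either direction, against 19.2% of all genes). Several of the lower ones are known in the retina. The complexin gene *CPLX4* (ENSDARG00000059978) of photoreceptor and bipolar cell synapses had 94.5, 93.6, 111 and 161 CPM in the WT libraries and 0.759, 0.379, 0.502 and 1.62 CPM in the *rx3 strong* libraries (log2 change -7.18 ± 0.26 (SE), edgeR adjusted p = 2.77e-13). The synaptotagmin gene *syt5b* had 136, 141, 123 and 166 CPM in the WT libraries and 14.8, 14.3, 13.4 and 23.2 CPM in the *rx3 strong* libraries (log2 change -3.13 ± 0.14 (SE), edgeR adjusted p = 5.58e-12). Neither overlapped with WT, and *rx3 weak* had 6.22 ± 2.75 and 24.4 ± 4.80 CPM. Over the list the median log2 change was -0.11. Myelin genes were higher in 4 of 13 (30.8% called, against 19.2% of all genes). The count was 1 without the WT library of ZT3. It was 2 without the WT libraries of ZT9 or ZT21 or the *rx3 strong* library of ZT9.

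Pigment cell genes went both ways, with 47.6% of 21 melanophore genes called, against 19.2% of all genes. Genes of melanin synthesis were among the 6 of 21 melanophore genes that were higher, with 90.1, 78.1, 63.3 and 67.8 CPM in the WT libraries and 101, 130.2, 117 and 106 CPM in the *rx3 strong* libraries for *tyrp1b* (log2 change 0.61 ± 0.10 (SE), edgeR adjusted p = 1.47e-04) and a log2 change of 1.08 for *OCA2*. Both lay above WT in each library and were not called against *rx3 weak* (edgeR adjusted p = 0.77 and 0.0997). Among the 4 lower members, *TRPM1*, a channel of retinal bipolar cells and melanocytes, and *pmelb*, a premelanosome protein, had log2 changes of -4.96 and -4.200, and *pmelb* had 3.24, 6.83, 10.8 and 4.56 CPM in the WT libraries and 0.234, 0.521, 0.603 and 0 CPM in the *rx3 strong* libraries. Without the WT library of ZT9, 2 members in place of 4 were lower.

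Several lists stood near or below the 19.2% of all genes. These were branched chain amino acid breakdown with 14.3% called, tyrosine, phenylalanine and tryptophan breakdown with 21.1%, erythroid genes with 17.6%, ionocytes with 17.5% and muscle protein breakdown with 16.7%. The hypoxia list was above that share, with 5 of 18 genes lower and 1 higher (33.3% called). Without the *rx3 strong* library of ZT3, 3 were lower. In the ionocyte list, the ammonia channel gene *rhcga* had 10.096, 2.095, 1.01 and 29.8 CPM in the WT libraries and 7.41, 3.36, 0.251 and 5.60 CPM in the *rx3 strong* libraries (log2 change -0.99 ± 0.33 (SE), edgeR adjusted p = 0.0449). Its groups overlapped, and the call was lost without the WT library of ZT3, ZT15 or ZT21 or the *rx3 strong* library of ZT15 or ZT21.

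The difference between the genotypes could itself differ between day (ZT3 and ZT9) and night (ZT15 and ZT21), which was tested as an interaction with 2 libraries per genotype and phase. Of 22078 genes, 11 (0.0498%) passed, all with a difference that was lower by day. By the same edgeR test 1308 genes had an unadjusted p under 0.05. Chance alone would put a share of about 0.05 of the genes tested there, not far below this count. Only 2 of the 11 carry a name. *dio3b*, a deiodinase that inactivates thyroid hormone, had 12.6, 16.5, 11.4 and 11.9 CPM in WT, 17.4, 16.2, 15.5 and 19.4 CPM in *rx3 weak* and 11.1, 12.1, 21.2 and 29.5 CPM in *rx3 strong* (day minus night difference of the log2 change -1.42 ± 0.23 (SE), edgeR adjusted p = 0.0331). It was slightly below WT by day and above WT by night. *pck1*, the entry enzyme of gluconeogenesis, had 242, 216, 99.0 and 179.2 CPM in WT, 242, 254, 81.4 and 150.3 CPM in *rx3 weak* and 99.72, 99.0, 110.1 and 139 CPM in *rx3 strong* (day minus night difference -1.103 ± 0.18 (SE), edgeR adjusted p = 0.0387). WT fell from the day to ZT15 and came back at ZT21, whereas *rx3 strong* was lower than WT by day and exceeded WT at ZT15 alone.

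Of the 9 unnamed identifiers, 6 agreed within 8 reads of each other in every library and a further 1 had the same profile, so that 7 identifiers stand for 1 measurement. Of these, ENSDARG00000081650 had 3.08, 19.9, 2.56 and 7.16 CPM in the WT libraries and 1.75, 2.18, 13.5 and 57.3 CPM in the *rx3 strong* libraries (day minus night difference -5.10 ± 0.78 (SE), edgeR adjusted p = 0.026), a pattern that rests on a high WT library at ZT9 and a high *rx3 strong* library at ZT21. Of the other 2 identifiers, ENSDARG00000086960 had 51.2, 59.3, 53.9 and 27.5 CPM in the WT libraries and 38.7, 28.5, 94.1 and 137 CPM in the *rx3 strong* libraries (day minus night difference -2.28 ± 0.38 (SE), edgeR adjusted p = 0.0405). These calls are fragile. Leaving out 1 library gave between 0 and 34 called genes. The call of *pck1* was lost without any of the 4 WT libraries or the *rx3 strong* libraries of ZT3 and ZT9. That of *dio3b* was lost without the WT libraries of ZT9 or ZT21 or the *rx3 strong* libraries of ZT3, ZT9 or ZT21. On the deposited log2 table, limma called 0 genes.

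**Figure D4:**
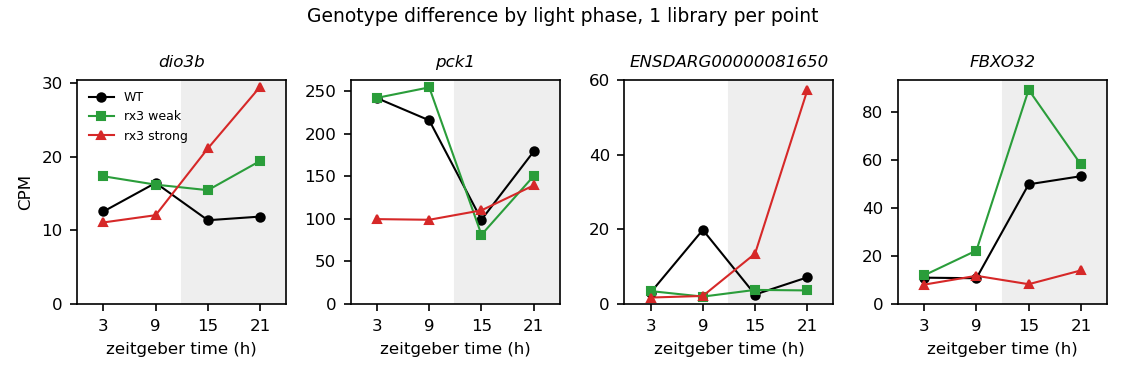
Level in CPM (y axis, from 0) by *Zeitgeber* time in hours (x axis, dark phase shaded), 1 library per point, for 4 genes in WT (circles), *rx3 weak* (squares) and *rx3 strong* (triangles). *dio3b*, *pck1* and ENSDARG00000081650 passed the day and night test, with differences of -1.42, -1.10 and -5.10, and *FBXO32* is shown for its night difference and did not pass.

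Homozygous mutants also share the chromosome region around *rx3*, in which linked sequence can differ from their siblings. Among 25 tested genes on each side of *rx3*, placed by the gene order of a newer annotation, 14 of 50 were called (28%, against 19.2% of all genes and 20.3% of genes with a symbol), 6 higher and 8 lower. Their median absolute log2 change was 0.176, against 0.185 for all genes tested. Of the 14, more lay after *rx3* in that order than before it. With 10 genes on each side 6 were called (30%), and with 50 on each side 25 (25%). The gene next to *rx3* on the first side is *CPLX4*, and 5 places away on that side lies *crb2a*, a cell polarity gene of photoreceptors and other epithelia (log2 change -1.32). On the other side the neighbour is *grp*, gastrin releasing peptide (log2 change 0.61), and *cel.2* and *cel.1* lie 11 and 12 places away (log2 change 1.51 and 0.64). Against *rx3 weak*, which carries its own allele on this chromosome, 3 of the 14 were called as well. These were *CPLX4* (log2 change -2.98, edgeR adjusted p = 3.18e-06), *arid6* (log2 change -0.86, adjusted p = 0.00228) and *NEK6* (log2 change 0.475, adjusted p = 0.00357). The other 11 were not called against *rx3 weak*, *cel.2* and *cel.1* among them (edgeR adjusted p = 0.213 and 0.542). Neighbours named only here were picked after their values were seen. The part of linked sequence in these values was not tested.

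**Figure D5:**
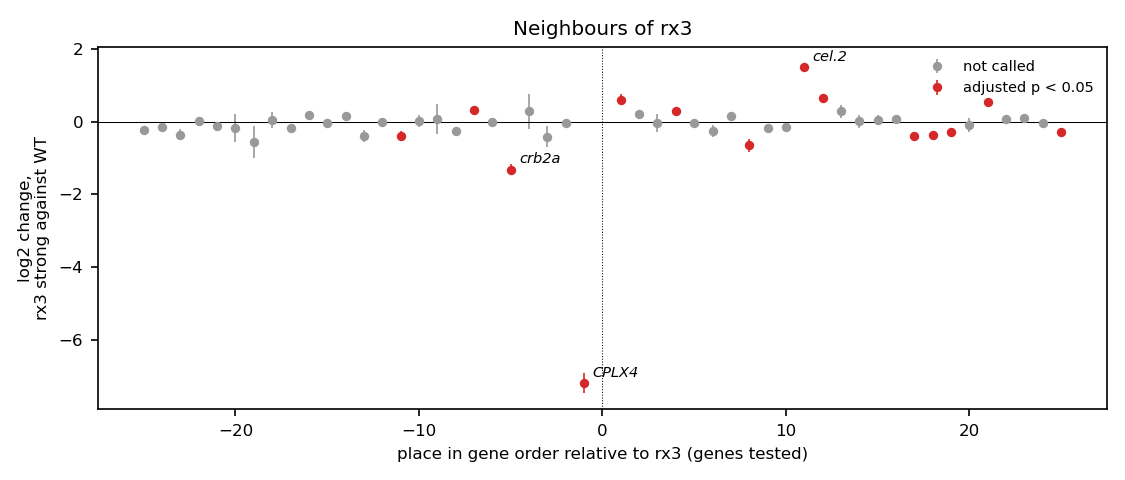
log2 change of *rx3 strong* against WT with its standard error (y axis) for the 25 tested genes on each side of *rx3*, ordered by place (x axis, *rx3* at 0), with called genes in red. More of the 14 called genes lay on the side of *cel.2* than on the side of *CPLX4*, where none lay beyond place -11. *CPLX4*, the direct neighbour, fell to -7.18.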

How the data were processed

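RNA-Seq of whole zebrafish larvae at 5 dpf was analysed for the 12 untreated libraries, and the 8 libraries under dexamethasone, made with another kit, were not used here. Reads of 54 nt were mapped by the authors with STAR to the Zv9 assembly, and the methods state that uniquely mapped reads were counted per Ensembl gene with HTSeq. The nearly equal counts of some near-identical genes (*opn1mw1* and *opn1mw2*, and 7 unnamed identifiers) are not what such counting would give, and how reads with several matches were treated is not given in the sources used here. The deposited counts are raw counts per gene and were used for all main results. The authors also deposited a log2 table (25590 genes), made from DESeq2-normalized counts by a variance stabilizing transformation, which served as an alternative only. Whether strand was used in counting is not given in the sources used here, so reads of overlapping, antisense and closely related genes cannot be told apart. Gene names came first from the gene tables of the study and otherwise from a reference name table (22147 of 32512 identifiers in all).

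Counts were fitted with edgeR 4.0.16 (R 4.3.3) by the quasi-likelihood test with TMM scaling, edgeR's filter on low counts, and genotype plus time point as factors (6 residual degrees of freedom). The day and night interaction left 4. CPM are TMM-scaled, SDs are over the 4 libraries of a genotype and include the time of day, and a change is on the log2 scale. The SE of a change was calculated back as its absolute value divided by the square root of the F statistic of the test. It is therefore approximate. Replicate numbers are time points. The deviations of WT and *rx3 strong* libraries of the same time correlated at 0.563, 0.4, 0.558 and 0.577 over 17510 genes, and those of different times at -0.461 to 0.206, so the time point was kept as the block. Counts were also simulated with 200 changed genes, all with a mean of at least 50 reads and 100 at each size of change. The level test recovered 97% of changes of 1 and 61% of changes of 0.5 (log2), with 13 false calls among 21904 genes. The interaction test recovered 95% of changes of 2 and 52% of changes of 1, with 14 false calls among 21870 genes. These false calls are to be weighed against the genes recovered, not against all genes. Recovery in genes with fewer reads was not simulated. The simulated time course of a gene was the same in all genotypes, apart from the changes put in. Only 200 genes were changed, while 4229 were called in the data, so recovery in the data can differ. The total counts, 16427280 to 22204708, limit the precision of genes with few reads.

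Named genes were the 12 largest rises and the 12 largest falls (called, same direction at all 4 time points, mean of at least 50 counts, with a symbol), up to 4 higher and 4 lower members per list by p-value, any tested member of the pituitary hormone, steroidogenesis and glucocorticoid target lists, the 5 called genes with the highest counts and up to 3 per direction of the interaction. Some genes that fit this rule are not reported here. Other named genes were chosen after their values were seen, among them *rx3*, *GNAT2*, *BFSP1*, *crygmxl1*, *foxe3*, *crygm3*, *VSX1*, *aanat2*, *asmt2*, *SIX6*, *VAX1*, *OTX2*, *crhr1*, *CRH*, *DUOXA1*, *apoa1a*, *apobb.1*, *c4b*, *bhmt*, *pfkma*, *hsp70l*, *dio3b* and *rhcga*. The comparison and the 41 gene lists were chosen with earlier results of these data known. Alternatives were other scalings, no filter, fits without the time factor, with the 8 libraries only or without 1 library, a stricter call, DESeq2 1.42.0 on the counts, and limma 3.58.1 on the deposited log2 values. Figures and summaries used Python 3.11.15.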

Additional observations from a re-analysis of the deposited data

Results flagged for a closer look

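In 314 groups of 4 libraries, Dixon's ratio set 1 library apart in 19, and chance sets apart about 1 in 20. In *rx3 strong*, the library of ZT21 was high for *OPN1SW* (2.83 CPM), *POMC* (7.22), *pomcb* (0.693), *LPIN1* (133), *paics* (483), *myhz1.1* (15657) and *syt5b* (23.2). The *rx3 strong* library of ZT15 was high for *NR5A1* (0.402 CPM) and low for *hmgcra* (10.4), and that of ZT9 was high for *hsd11b2* (28.8). In WT, the library of ZT21 was high for *FKBP5* (206 CPM), *KLF9* (45.5), *PER1* (ENSDARG00000056885, 140.2), *crygm2f* (14.1) and *myhz1.1* (12160.3) and low for *rx1* (12.4). The WT library of ZT9 was high for *opn1sw2* (294 CPM) and *NEUROD1* (221), and that of ZT15 was high for *c6.1* (2.88). Since each library is also a time point, an unusual library and the time of day cannot be told apart.

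The difference between *rx3 strong* and WT differed between day and night by the interaction test for ENSDARG00000081650 (-5.10, log2), *dio3b* (-1.42), *pck1* (-1.10) and ENSDARG00000086960 (-2.28), and 9 of the 11 genes called by it carry no symbol. In each, the difference was lower by day than by night.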

How the results depend on the processing

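No gene with values in the text that was called against WT changed direction under any alternative. Among genes not called, the log2 change against WT turned for *pomcb* (-0.15, up to 0.04), ENSDARG00000081650 (0.70, down to -0.54) and ENSDARG00000086960 (0.52, down to -0.05) when 1 library was left out, and the median of all genes moved from 0.01 to -0.07 with total counts. Of 157 genes with values in the text, 143 were called, and 108 of these were called under all alternatives. Without the time point as a factor (no replicate block), *rx3 strong* differed from WT in 2078 genes (801 higher, 1277 lower) in place of 4229 and from *rx3 weak* in 1059 (457 higher, 602 lower) in place of 2677, with 280 of 460 called list genes and 159 of 250 named genes; this fit puts the differences between time points into the error. With a log2 change of at least 1 as well, 980 genes (167 higher, 813 lower) were called against WT, 719 (225 higher, 494 lower) against *rx3 weak*, 197 list genes and 113 named genes. Scaling by total counts called 1148 genes higher than WT in place of 1912; the cause was not tested. Neighbours of *rx3* numbered 6 called with 10 genes on each side and 25 with 50. Leaving out 1 library gave 3045 to 4091 genes against WT (1150 to 1825 higher, 1885 to 2266 lower), 2076 to 2618 against *rx3 weak* (823 to 1031 higher, 1184 to 1587 lower), 388 to 456 list genes and 213 to 234 named genes, and 113 of 656 list counts moved by over 1.5 times, mostly counts of a few genes. The day and night test moved most. It called 0 to 34 genes (0 to 10 higher, 0 to 24 lower) without 1 library, 98 (35 higher, 63 lower) without the filter, 21 (7 higher) with 8 libraries, 17 (4 higher) with DESeq2 and 0 with limma (0 lower), and 3 higher genes with total counts; the cause was not tested. Depth limits genes with few reads, such as *smtla*, *foxe3* and *hsd3b1*.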
